A study of Rattus norvegicus with 6 samples.

Results

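The miR-322, miR-503, miR-351, miR-542 and miR-450 hairpins form 1 cluster on the rat X chromosome, and 10 of its mature arms were followed here among 764 rat miRNA entries of a small RNA sequencing table. The 10 arms were chosen by name as products of this cluster. They were picked with the values of these libraries known, among them which arms were lower in the knockout, so the contrast between genotypes is given for them as a description and supports nothing. All 10 arms had reads in all 6 libraries. Tissue labelled testicle came from male Sprague Dawley rats, giving 3 libraries of HO-1 knockout animals and 3 of wild type animals, and all of them followed the same injury. The left testis had been twisted by 720° for 2 h and released, and tissue was taken 3 days later. Heme oxygenase 1, encoded by the deleted gene HO-1, is a stress-inducible enzyme that degrades heme. No sham or uninjured tissue was analysed here, and the labels give neither ages nor whether the libraries of a group are separate animals. Any test therefore measures only the spread between these libraries.

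A hairpin precursor is cut into a 5p and a 3p arm, and the arm that is loaded into an Argonaute protein guides it to messenger RNAs through its seed, bases 2 to 8. The hairpins of this cluster are processed from a shared primary transcript. miR-322, the rodent counterpart of human miR-424, and miR-503 are known for repressing cell cycle genes such as Cdc25a and for promoting cell cycle exit in differentiating muscle cells. miR-542-3p is known to target survivin.

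In the RefSeq annotation of GRCr8 the 6 hairpins lie on the minus strand of the X chromosome. Read along the transcript the order is mir-322, mir-503, mir-351, mir-542, mir-450b and mir-450a. RefSeq held a mature sequence for 10 of the 10 members. The sequences below are shown because seed and arm divide the members, and capitals mark the seed.
rno-miR-322-5p: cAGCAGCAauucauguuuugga
rno-miR-503-5p: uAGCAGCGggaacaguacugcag
rno-miR-351-5p: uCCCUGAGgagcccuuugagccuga
rno-miR-542-3p: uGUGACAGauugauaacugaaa
rno-miR-450b-5p: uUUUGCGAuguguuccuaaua
rno-miR-450a-5p: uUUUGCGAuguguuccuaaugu
rno-miR-322-3p: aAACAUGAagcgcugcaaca
rno-miR-503-3p: gGAGUAUUguuuccgcugccugg
rno-miR-351-3p: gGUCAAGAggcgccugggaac
rno-miR-542-5p: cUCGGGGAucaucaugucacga

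Only the miR-450 5p arms share a seed of bases 2 to 8 with each other. miR-450a-5p and miR-450b-5p are identical over their first 20 bases. They differ by 1 substitution, G21A, counted from the 5′ end with the base of miR-450a-5p first, and in length, at 22 and 21 bases. A read that ends at or before base 20 cannot be assigned to one of them by sequence, and the sources used here do not say how such reads were counted. miR-322-5p and miR-503-5p share bases 2 to 7 and differ at base 8. In the mir-322 hairpin, capitals mark both arms.
mir-322 hairpin: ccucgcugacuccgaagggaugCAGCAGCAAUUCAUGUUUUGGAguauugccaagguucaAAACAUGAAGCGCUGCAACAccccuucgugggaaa

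Values are reads per 1000000 assigned reads (RPM). Recovered library totals were 8300536 to 10042673 reads, so that 1 read equalled 0.0996 to 0.12 RPM. miR-122-5p, a miRNA of hepatocytes, held 326912 to 463696 RPM in these libraries. Of 19 germ and Sertoli cell markers 18 were in the table, summing to 28.9 to 55.6 RPM per library, and 5 of them were at 0 throughout, miR-202-3p, miR-880-3p, miR-883-3p, miR-463-3p and miR-465-5p. Which cells the RNA of these libraries came from was not tested. In bulk tissue, fewer cells of a type and less RNA per cell cannot be told apart.

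Summed over the 10 arms, the level was 702.4 ± 95.9 RPM for wild type and 580.3 ± 35.5 RPM for knockout libraries (SD, n = 3), or 0.054% to 0.076% of the reads of a library. Wild type libraries 1, 2 and 3 gave sums of 754, 762 and 592 RPM, and the knockout ones gave 593, 608 and 540.3 RPM. The genotypes overlapped, because wild type library 3 was as low as knockout library 1. The log2 ratio of the means was -0.28, -0.043 with TMM scaling and -0.076 when miR-122-5p was left out of the total.

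The cluster was led by the 5p arms of its last hairpins. Over all 6 libraries the order of levels was miR-450a-5p, miR-450b-5p, miR-351-5p, miR-322-3p, miR-322-5p, miR-542-3p, miR-503-3p, miR-503-5p, miR-351-3p and miR-542-5p. Each of the first 8 stood above the next arm within all 6 libraries. The ranges of miR-450a-5p and miR-450b-5p, of miR-450b-5p and miR-351-5p, and of miR-503-5p and miR-351-3p were fully apart, while every other pair of neighbours overlapped across libraries. miR-351-3p and miR-542-5p, the lowest pair, changed places between libraries, with miR-351-3p higher in 3 of 6. Ligation-based kits capture different sequences with different efficiency, so an order between arms is one of reads.

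**Figure D1:**
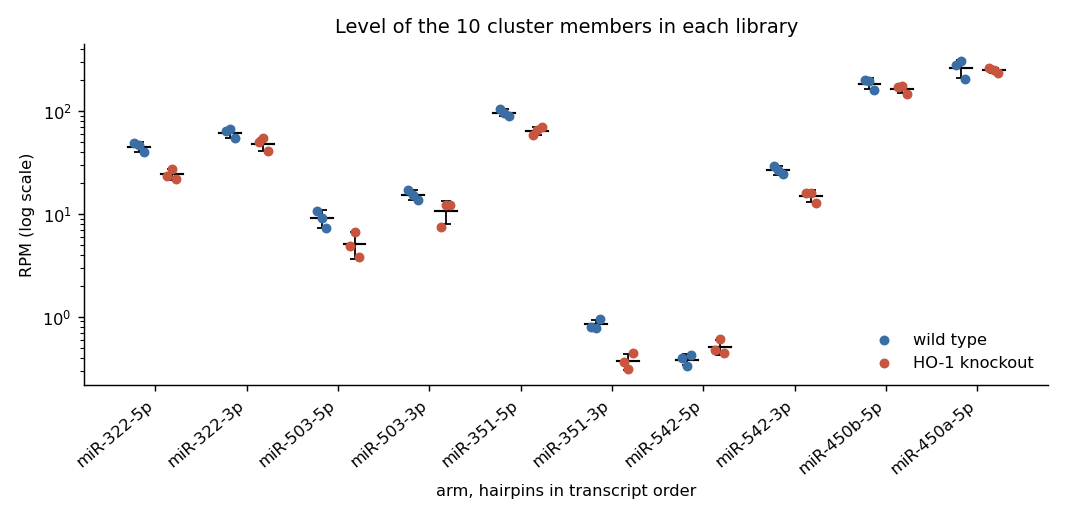
RPM of each of the 10 arms (log axis) in the 3 wild type and 3 knockout libraries, with hairpins in transcript order. Points are libraries, horizontal lines are means and error bars are SD (n = 3). The genotypes overlap for both miR-450 5p arms, at 147 to 305 RPM, and are apart for miR-322-5p, at 39.7 to 48.6 against 22.0 to 27.4 RPM.

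rno-miR-322-5p, the cell cycle repressor arm of the first hairpin, had 48.59, 46.77 and 39.67 RPM in the 3 wild type libraries, in replicate order here and below, against 23.13, 27.42 and 22.02 RPM in the 3 knockout libraries. All knockout values lay below all wild type values. The means were 45.0 ± 4.7 and 24.2 ± 2.9 RPM (SD, n = 3), 1.86-fold lower in the knockout. The difference on the log2(RPM + 1) scale was -0.87 (SE 0.17), and -0.65 with TMM scaling. The opposite arm, rno-miR-322-3p, had 63.93, 66.05 and 54.02 RPM against 49.51, 54.13 and 40.48 RPM without HO-1. Its genotypes overlapped by a small margin, since knockout library 2 stood above wild type library 3. Its difference on the log2(RPM + 1) scale was -0.35 (SE 0.17), and -0.13 with TMM scaling.

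rno-miR-503-5p, which shares the seed core of miR-322-5p, was less abundant. Wild type values were 10.75, 9.20 and 7.28 RPM, and knockout values were 4.82, 6.73 and 3.78 RPM. The genotypes did not overlap. The difference on the log2(RPM + 1) scale was -0.74 (SE 0.27), -0.54 with TMM scaling and -0.48 with a pseudocount of 5. These values rested on 34 to 108 reads per library. For rno-miR-503-3p the wild type values were 17.13, 15.34 and 13.61 RPM and the knockout values 7.47, 12.23 and 12.12 RPM. It was lower in all knockout libraries, most so in library 1, with a difference of -0.52 (SE 0.25) on that scale. This became -0.31 with TMM scaling and also -0.31 without knockout library 1.

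rno-miR-351-5p, which carries the seed of the miR-125 family, was the most abundant arm outside the miR-450 hairpins. The wild type libraries had 104.45, 94.75 and 89.26 RPM of it, against 57.71, 64.63 and 69.29 RPM in the knockout libraries. The genotypes were apart, 1.51-fold lower in the knockout, with a difference of -0.58 (SE 0.14) on the log2(RPM + 1) scale, and -0.36 with TMM scaling. rno-miR-351-3p summed to 24 wild type reads and 10 knockout reads, or 0.80, 0.77 and 0.95 RPM against 0.36, 0.31 and 0.44 RPM. Its genotypes were apart, but with 3 to 9 reads per library it was close to the limit of detection.

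rno-miR-542-3p, the survivin-targeting arm, had 29.47, 26.40 and 24.27 RPM in the wild type, against 16.02, 16.11 and 12.79 RPM in the knockout. The genotypes were apart, 1.78-fold lower in the knockout, with a difference of -0.80 (SE 0.19) on the log2(RPM + 1) scale, and -0.58 with TMM scaling. Its partner rno-miR-542-5p summed to 11 wild type reads and 14 knockout reads. It was the only arm whose mean was higher in the knockout, at 0.51 against 0.38 RPM, and 3 to 6 reads per library do not resolve such a difference.

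The miR-450 5p arms, at the end of the transcript, did not separate by genotype. Wild type values of rno-miR-450a-5p were 280.5, 305.07 and 203.33 RPM, and knockout values were 261.31, 250.89 and 231.78 RPM. The lowest value of all was wild type library 3. Those of rno-miR-450b-5p were 197.76, 196.96 and 158.90 RPM against 171.80, 174.84 and 147.15 RPM. Their differences on the log2(RPM + 1) scale were -0.06 (SE 0.17) and -0.16 (SE 0.14), and with TMM scaling 0.16 and 0.06. The ratio of miR-450a-5p to miR-450b-5p stayed between 1.28 and 1.58 in all 6 libraries. Their 3p arms were rarer. For wild type against knockout, miR-450a-3p stood at 3.31 ± 0.26 and 3.27 ± 0.79 RPM, and miR-450b-3p at 9.37 ± 1.86 and 7.19 ± 0.27 RPM (SD, n = 3). The genotypes overlapped for miR-450a-3p. They were apart for miR-450b-3p, at 11.45, 7.89 and 8.76 RPM in the wild type and 7.23, 7.44 and 6.90 RPM in the knockout. Its difference on the log2(RPM + 1) scale was -0.33 (SE 0.23), and -0.12 with TMM scaling.

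A fit over all 570 miRNAs with reads (limma, Benjamini-Hochberg adjusted p below 0.05) placed 2 of the 10 arms, miR-322-5p and miR-542-3p, lower in the knockout and 0 higher, and 8 did not pass. Over all miRNAs it placed 5.61% lower and 0.702% higher, 6.32% in all, and since the arms were chosen with this contrast known, nothing is read from their count. Knockout values lay below all wild type values for 6 of the 10 arms and above them for 1, beside 21.6% and 4.39% of the 570 miRNAs. Among miRNAs of at least 10 RPM that share below was 41.7%. The 6 arms include miR-503-5p and miR-351-3p, whose means over all libraries, 7.09 and 0.605 RPM, fall under that limit. The rest of the 6, miR-322-5p, miR-351-5p, miR-542-3p and miR-503-3p, are among the 7 arms that reach it and compare with the 41.7%. The 1 arm above was miR-542-5p, at 3 to 6 reads per library. The median difference on the log2(RPM + 1) scale was -0.47 over the 10 arms and -0.12 over all 570 miRNAs. It was -0.29 over the 218 miRNAs of at least 10 RPM, which TMM scaling moved by 0.21, to -0.07. With that scaling the median of the 10 arms was -0.33. Both calls were lost when wild type library 1 or 2 or any single knockout library was left out. Without wild type library 3, miR-322-5p passed and miR-542-3p did not. The call of miR-542-3p also ended with TMM scaling, RLE scaling or a pseudocount of 5. miR-351-5p passed as well with a pseudocount of 0.1 or when only miRNAs of at least 10 RPM were fitted.

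**Figure D2:**
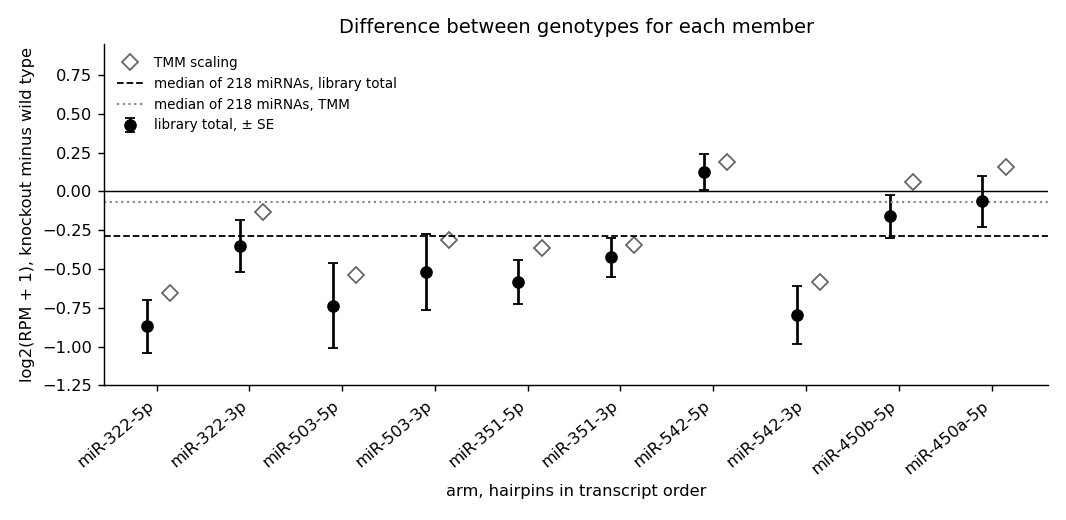
Difference between knockout and wild type for each arm on the log2(RPM + 1) scale, with hairpins in transcript order. Filled circles with SE bars use library totals, open diamonds use TMM scaling, and the dashed and dotted lines are the medians of 218 miRNAs under each. miR-322-5p (-0.87) and miR-542-3p (-0.80) lie farthest below the dashed line at -0.29, and both miR-450 5p arms lie above it.

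A ratio between arms of the same library does not depend on how libraries are scaled. It does depend on the reference arms. The miR-450 5p arms were taken as reference after values were seen, and the log2 ratio of their mean sums was -0.12. The median difference of the 218 miRNAs of at least 10 RPM was -0.29, so a miRNA at that median would also be lower on this measure. Per 100 reads of miR-450a-5p and miR-450b-5p together, the wild type libraries had 10.2, 9.32 and 11.0 reads of miR-322-5p, and the knockout libraries had 5.34, 6.44 and 5.81. miR-542-3p had 6.16, 5.26 and 6.70 against 3.70, 3.78 and 3.38 on this measure. Both were apart between genotypes, with a knockout to wild type ratio of 0.578 for miR-322-5p and 0.599 for miR-542-3p.

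On the same measure miR-503-5p (ratio 0.606), miR-351-5p (0.716), miR-351-3p (0.467) and miR-322-3p (0.841) were also apart. miR-503-3p and miR-542-5p overlapped. The miR-450 5p arms accordingly made up 63.5% ± 2.3 of the cluster's wild type reads and 71.1% ± 1.7 of its knockout reads (SD, n = 3). The other 8 arms summed to 254.9 ± 23.4 and 167.7 ± 12.6 RPM. These ratios use the same libraries and contrast that informed the choice of members, and they were not tested. The share of all miRNAs that would be apart on this measure was not computed, so nothing is read from how many arms were.

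**Figure D3:**
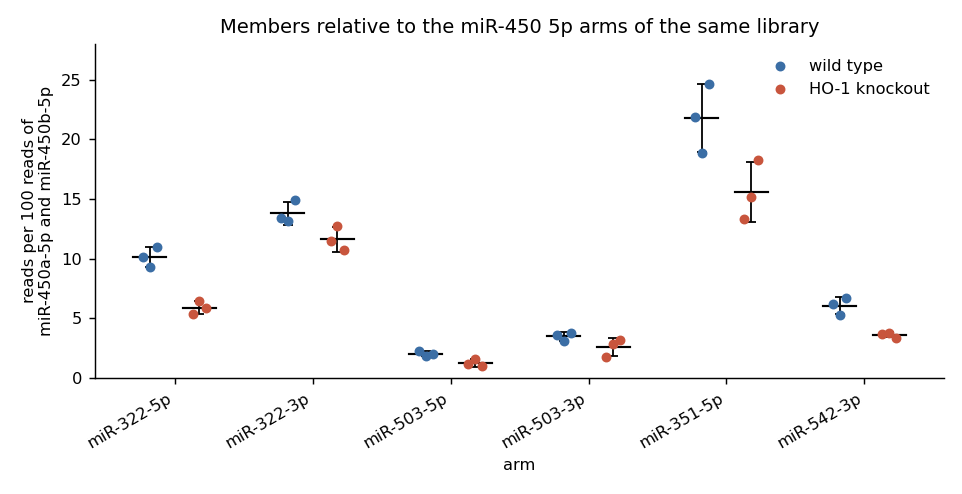
Reads of 6 arms per 100 reads of miR-450a-5p and miR-450b-5p in the same library. Points are libraries, lines are means and error bars are SD (n = 3). miR-322-5p lies at 9.32 to 11.0 in the wild type and 5.34 to 6.44 in the knockout, while miR-503-3p overlaps.

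The arms of 1 hairpin did not always move together. In mir-322 the share of the 5p arm in the reads of both arms was 43.2%, 41.5% and 42.3% for the wild type libraries, and 31.8%, 33.6% and 35.2% for the knockout libraries. The means were 42.3% ± 0.9 and 33.6% ± 1.7 (SD, n = 3), and the libraries did not overlap. The counting intervals of the genotypes overlapped slightly. The lowest bound among the 95% Wilson intervals of single wild type libraries was 38.5%, and the highest among those of knockout libraries was 39.3%. Such intervals cover counting error only and treat each read as independent, which would not hold for PCR copies.

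In mir-503 the 5p arm held 38.6%, 37.5% and 34.8% of wild type reads, against 39.2%, 35.5% and 23.8% of knockout reads, where the low value of library 3 rested on 34 reads of miR-503-5p. These genotypes overlapped, and the Wilson bounds ran from 17.5% to 48.9% in the knockout. In mir-542 the 5p arm held 1.34%, 1.23% and 1.70% of wild type reads, against 2.91%, 3.65% and 3.33% of knockout reads, from 11 of 778 and 14 of 420 reads. The groups were apart, with Wilson bounds of single libraries from 0.419% to 4.31% and from 1.14% to 8.32%. The 5p arm held at least 98.2% of mir-450a, 94.5% of mir-450b and 98.9% of mir-351 in every library. The genotypes overlapped for both miR-450 hairpins. They were apart for mir-351, at 98.9% to 99.2% in the wild type and 99.4% to 99.5% in the knockout, with 3 to 9 reads of miR-351-3p per library. How often the shares of hairpins outside the cluster were apart was not computed, so nothing is read from how many were apart here.

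**Figure D4:**
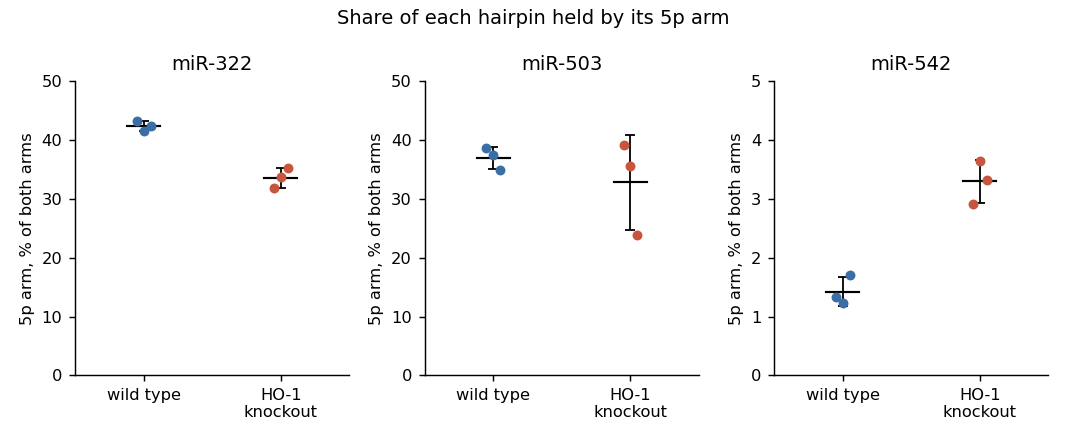
Share of a hairpin's reads held by its 5p arm, in percent, for mir-322, mir-503 and mir-542, whose axis ends at 5%. Points are libraries, lines are means and error bars are SD (n = 3). The mir-322 share lies at 41.5% to 43.2% in the wild type and 31.8% to 35.2% in the knockout.

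miRNAs with the same seed can bind the same sites, so the members were set beside their seed relatives outside the cluster. Among the tested miRNAs with a RefSeq sequence, 4 carried the seed of miR-322-5p, 2 that of miR-351-5p, and none that of another member. The miR-15 and miR-16 family is known for repressing cyclins and Bcl2. Of its 4 relatives 1 fell and 3 did not pass, and of the 2 miR-125 relatives 1 fell and 1 did not pass (limma over all 570 miRNAs, 5.61% lower). The most abundant relatives of each seed read as follows.
rno-miR-16-5p: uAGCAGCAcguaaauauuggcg
rno-miR-195-5p: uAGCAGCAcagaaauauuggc
rno-miR-125b-5p: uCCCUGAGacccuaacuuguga
rno-miR-125a-5p: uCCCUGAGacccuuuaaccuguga

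In the wild type miR-16-5p had 908, 934 and 875.5 RPM, against 447, 565 and 601 RPM in the knockout. It fell, with a difference of -0.76 on the log2(RPM + 1) scale (limma adjusted p = 0.017), and 3 of 3 knockout values lay below every wild type value. Leaving out wild type library 2 or knockout library 3 ended that call. miR-195-5p stood at 304.2 ± 12.8 and 246.6 ± 29.0 RPM, miR-497-5p at 99.9 ± 22.2 and 76.9 ± 10.6 RPM, and miR-15b-5p at 63.9 ± 7.1 and 49.4 ± 7.7 RPM (SD, n = 3), and these did not pass. miR-15a-5p, for which no sequence is shown, had 40.5 ± 7.0 wild type RPM and 19.6 ± 4.2 knockout RPM (SD, n = 3). It fell, with a difference of -1.02 (limma adjusted p = 0.038), a call that ended when any library but wild type library 3 was left out.

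In the pool of miR-322-5p and its 4 sequence-matched relatives, miR-322-5p made up 2.94% to 3.30% of wild type reads and 2.21% to 2.90% of knockout reads. The 53 tested miRNAs without a RefSeq sequence, miR-15a-5p among them, were not in it. This pool summed to 1419 ± 64 and 935 ± 119 RPM (SD, n = 3). For the seed of miR-351-5p the pool, of miR-351-5p and its 2 relatives, was led by miR-125b-5p, which fell from 4857 ± 723 to 2545 ± 296 RPM, with a difference of -0.93 (limma adjusted p = 0.015), a call lost without knockout library 3. miR-125a-5p, at 1117 ± 56 and 1053 ± 73 RPM, did not pass. miR-351-5p made up 1.34% to 1.84% of that pool, with overlapping genotypes.

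**Figure D5:**
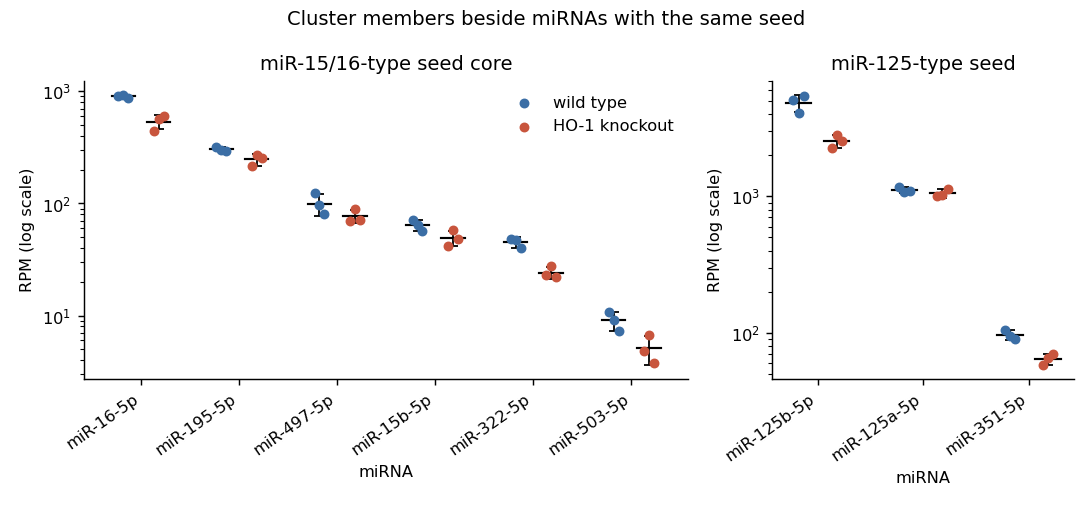
RPM (log axis) of miR-322-5p and miR-503-5p beside miRNAs that share their seed core, and of miR-351-5p beside the miR-125 pair. Points are libraries, lines are means and error bars are SD (n = 3). In the first panel the wild type means ran from 906 RPM for miR-16-5p down to 9.08 RPM for miR-503-5p, and in the second miR-125b-5p stood above miR-351-5p in all 6 libraries.

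Lists of cell type markers were summed beside these arms, and over all 570 miRNAs the fit placed 5.61% lower and 0.702% higher. The 8 stromal and smooth muscle markers summed to 12086 to 19225 RPM in the wild type and 6895 to 9094 RPM in the knockout, and 4 of 8 fell. Of the 8 listed, miR-214-5p was near the floor and overlapped, at 0.30, 0 and 0.11 RPM in the wild type and 0 in every knockout library. Both endothelial markers fell, with sums of 25222 to 26982 and 19147 to 21287 RPM. The 2 hepatocyte markers summed to 328377 to 366899 RPM and 403907 to 464870 RPM, and neither passed. Of 8 striated muscle markers 0 of 6 tested passed. They summed to 87.4 to 142 RPM in the wild type and 68.5 to 83.1 RPM in the knockout, with miR-208a-3p and miR-208b-3p at 0 throughout. The germ and Sertoli cell markers summed to 39.4 to 55.6 RPM in the wild type against 28.9 to 33.5 RPM in the knockout, and 0 of 13 tested passed. Except for the hepatocyte list, which was higher, every list sum was lower in each knockout library than in all wild type libraries. Single markers could differ from their sum. The hepatocyte sum was nearly all miR-122-5p, while miR-122-3p had a lower knockout mean (1326 against 1420 RPM) and overlapped. The stromal marker miR-145-3p had a higher knockout mean (267.9 against 253.7 RPM) and overlapped. So did miR-133a-5p, miR-34b-3p and miR-202-5p, all at low levels. The part of these lists in the differences of the cluster was not tested.

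Across the 6 libraries, the miRNA whose log2 level was most like the summed cluster was miR-499-5p, known from slow and cardiac muscle (Pearson r = 0.995, n = 6 libraries, highest of 211 miRNAs of at least 10 RPM). Wild type values of it were 128.15, 137.26 and 78.08 RPM, and knockout values 77.83, 77.48 and 59.61 RPM, with wild type library 3 low, as in the cluster. It made up most of the striated muscle sum, and miR-1-3p, a defining marker of striated muscle, was at 0.84 to 2.49 RPM. Next came miR-30b-3p, miR-30e-3p, miR-872-5p and miR-802-3p (r from 0.932 to 0.963). With genotype means subtracted, miR-499-5p was again first (r = 0.992), followed by miR-191a-3p, miR-872-5p, miR-378b and miR-340-5p (r from 0.949 to 0.980). These points share libraries and totals, and the sum follows mainly the miR-450 5p arms.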

How the data were processed

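The libraries were prepared by adapter ligation from 1 μg RNA and read as single ends of 50 bp, per the labels' protocols. The authors deposited RPM for 764 rat miRNA entries, with each library summing to 1000000, and 6 value columns matched the 6 samples by name. The deposited table also holds the authors' log2 fold change and p-value, which were not used. The submitters' processing notes list FastQC, BWA, edgeR and build rn6 without saying what each was used for. The sources used here do not give the annotation release or the handling of multiply matching reads.

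limma 3.58.1 (R 4.3.3) was fitted with its trend option on log2(RPM + 1) for the 570 entries with any value above 0, comparing genotypes with no covariate, with Benjamini-Hochberg adjustment at 0.05. The design named this test in case the table held normalized values. Whole reads were recovered from the RPM steps. Of values under 300 RPM, 98.1% to 99.5% lay within 0.0051 RPM of a whole number, against 7.18% to 8.23% by chance. The step of wild type library 1, 0.0996 RPM, is close to 0.1, so its total rests on the higher of the values under 300 RPM. Each total was then set where it matched the sum of the recovered reads. Whether nearby totals fit as well was not tested. edgeR 4.0.16 was run on these reads as an alternative only. Simulated data were run only through limma and edgeR with TMM scaling. The fit reported, on library totals, was not tested in this way.

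The members and lists were chosen with earlier results of these data known. Named miRNAs are every member, the 3p arms of miR-450, seed relatives of at least 10 RPM and the 5 most alike the summed cluster by each measure. Ratios to the miR-450 5p arms, and miR-15a-5p, were added after values were seen. Sequences are from RefSeq (GRCr8). Since that build differs from rn6, no coordinates are printed. Alternatives were pseudocounts of 0.1 and 5, TMM and RLE scaling, only miRNAs with a mean of 10 RPM or more, the replicate number as a block, and leaving out each library.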

Additional observations from a re-analysis of the deposited data

How the results depend on the processing

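The fit over all miRNAs gave 36 calls, 32 lower and 4 higher. It gave 49 (29 lower, 20 higher) with TMM scaling, 47 (27 and 20) with RLE scaling, 61 (35 and 26) with edgeR on recovered reads and TMM, a setting chosen after seeing the data, and 5 to 26 with 1 library left out. Of the 10 arms, 2 passed in the fit reported, 3 with a pseudocount of 0.1 or a mean of at least 10 RPM, where miR-351-5p was added, 1 with TMM, RLE or a pseudocount of 5, and 0 to 1 with 1 library left out. Where limma called 0 arms, 4 or 5 had an unadjusted p below 0.05, beside 82 to 110 of the 554 to 570 miRNAs fitted. edgeR on recovered reads called 2 arms with either scaling, beside 48 and 61 of all 570 miRNAs. As the arms were chosen with this contrast known, nothing is read from these counts. The seed relatives gave 2 calls, and 0 to 2 with 1 library left out.

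The replicate block gave 22 calls over all miRNAs and 0 of the 10 arms in limma, and miR-15a-5p did not pass. With the block 5 of the 10 arms had an unadjusted limma p below 0.05, beside 95 of all 570 miRNAs. Samples with the same number correlated by 0.03, 0.18 and 0.20 in their deviations from the group means, against -0.29 to 0.06 for different numbers. Knockout libraries 2 and 3 correlated best with the wild type library of their own number. Knockout library 1 stood at 0.043 with wild type library 3 and 0.033 with wild type library 1. These values do not settle whether the numbers pair the samples, and the fit reported used no block.

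The log2 ratio of the summed cluster was -0.28, and -0.043 with TMM scaling, -0.076 without miR-122-5p in the total, and -0.38 to -0.21 with 1 library left out. The difference in the mir-322 5p share was -8.76 percentage points, and -9.59 to -7.90 with 1 library left out. With TMM, RLE and edgeR with TMM, differences changed sign to 0.16, 0.17 and 0.14 for miR-450a-5p, to 0.062, 0.078 and 0.059 for miR-450b-5p, to 0.14, 0.16 and 0.20 for miR-450a-3p, and to 0.14, 0.15 and 0.13 for miR-125a-5p. With 1 library left out, miR-450a-5p ran from -0.24 to 0.052 and miR-450a-3p from -0.17 to 0.096. The other 8 arms kept their direction in every setting run, of which miR-503-5p, miR-351-3p and miR-542-5p could not enter the fit of at least 10 RPM. The cause was not tested. Depth limits miR-351-3p and miR-542-5p, with 3 to 9 reads per library.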
